A study of Mus musculus with 4 samples.

Results

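Collagen chain genes encode the polypeptides that wind together in threes into collagen molecules. Of the 32286 entries of the feature list, 44 are collagen chain genes by symbol (Col, a type number, a, a chain number). The 34 with at least 20 UMIs summed over the first lanes of both pools are described here; a UMI stands for 1 captured mRNA molecule. They belong to 22 collagen types. The 10 chains under that minimum were Col4a3, Col4a6, Col6a4, Col6a6, Col7a1, Col9a3, Col14a1, Col17a1, Col19a1 and Col28a1.

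Type I collagen, built from Col1a1 and Col1a2 chains, is the main protein of bone matrix, and osteoblasts secrete it as the scaffold that mineralizes. Types V and XI are minor fibrillar collagens that co-assemble with the major fibrils and limit their diameter. Types IV, VI and VIII form basement membranes, beaded filaments and networks around cells, FACIT collagens such as XII bind to fibril surfaces, and types XIII, XXIII and XXV span the cell membrane.

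Cells were profiled by droplet 3′ single-cell RNA-seq in 2 groups of C57BL/6J mice, one with hindlimb immobilization for 2 weeks and one without. All mice were Tnfsf11tTA/+; LC1; Rosa26LSL-tdTomato, had doxycycline from E0 to birth, were 8 weeks old at the start and 10 weeks old at the end. The transactivator at 1 allele of Tnfsf11, the RANKL gene, drives Cre (LC1), so tdTomato marks cells that used this locus after doxycycline ended, and their progeny; the cells are thus a RANKL-lineage subset in both groups. The sort took live CD45.2-Ter119-tdTomato+ cells of the femurs and tibias of each limb, bone and marrow together, pooled from 6 immobilized and from 4 control animals. Each group is therefore 1 pool, no test across animals was possible, and intervals below are 95% intervals for counting error only.

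After filtering, 1393 immobilized and 1414 control cells remained. Classes were rebuilt by clustering without any collagen chain gene, so that collagen levels did not define them. CAR-like cells, the Cxcl12-rich reticular stroma of marrow, numbered 317 in the immobilized and 527 in the control pool. Osteo-primed stroma-like cells numbered 394 and 224, early osteoblast-like cells 99 and 47, and mature osteoblast-like cells 333 and 409. The control pool had fewer early cells than the 50 set as the minimum, and that class is given under a minimum of 40 chosen after the cells were counted. Marker sums fitted these names with 1 exception: the early osteoblast list summed to 6521 and 5360 CPM (UMIs per 1000000 UMIs of the class) in early osteoblast-like cells and to 6488 and 5584 CPM in osteo-primed cells, about as high. Early osteoblast-like cells also carried mature osteoblast markers, at a sum of 37312 and 57585 CPM. Some single markers went against the sums. Runx2, on the early list, was at 4713 and 4004 CPM in osteo-primed and at 3005 and 2367 CPM in early osteoblast-like cells. Ibsp, on the mature list, was at 8927 and 8712 CPM in osteo-primed and at 7122 and 5867 CPM in mature osteoblast-like cells. The pools differed in sex, called per cell from Xist and Y-linked genes: female cells were 25.9% of immobilized and 43.5% of control CAR-like cells with a call, 57.7% and 65.0% of osteo-primed, 75.3% and 78.0% of early and 77.5% and 96.0% of mature osteoblast-like cells.

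Most of the chains, 22 of 34, have a sequence feature that the choice of members did not use. The miR-29 microRNAs, known in mouse and human cells to repress collagen and other matrix mRNAs, carry 1 seed (bases 2 to 8, in capitals), shown because the site it pairs with recurs in collagen 3′ UTRs. The mature sequences, from RefSeq on GRCm38.p6, are:
mmu-miR-29a-3p: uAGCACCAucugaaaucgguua
mmu-miR-29b-3p: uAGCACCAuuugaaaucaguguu
mmu-miR-29c-3p: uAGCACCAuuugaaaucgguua

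The complement of that seed, TGGTGCT, read on the transcript strand only, was found in the longest annotated 3′ UTR of these 22 chains (64.7%), and 9 held at least 2 copies. Among 21014 protein-coding genes with a 3′ UTR in the same annotation (GENCODE vM21, GRCm38) the share was 13.1%. The median 3′ UTR was 1175 bases in the chains and 961 bases in all genes. By length, the site was in 2 of 3 chains under 500 bases (2.55% of all genes of that length), 6 of 10 from 500 to 1000 bases (7.69%), 9 of 13 from 1000 to 2000 bases (13.2%) and 5 of 8 at 2000 bases or more (30.3%). So the chains held the site more often than genes of like length in each bin. Sites of 6 chains on which results below turn are printed with the match in capitals, on the strand of the gene:
Col1a1: ggaaggaatttcTGGTGCTatagaagctga
Col2a1: tgtcctacacaaTGGTGCTattctgtgtca
Col3a1: aaaatgtctcaaTGGTGCTataataaataa
Col8a1: tatattctaccaTGGTGCTaatatcagagc
Col24a1: tttggtgttgctTGGTGCTgtctcccaaaa
Col25a1: catttgtgttgtTGGTGCTaatagatcttc

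On GRCm38 these windows lie in 3′ UTRs at chr11:94952526-94952555 (plus strand) for Col1a1, chr15:97975671-97975700 (minus) for Col2a1, chr1:45348970-45348999 (plus) for Col3a1, chr16:57624695-57624724 (minus) for Col8a1, chr3:145551198-145551227 (plus) for Col24a1 and chr3:130597869-130597898 (plus) for Col25a1. Col5a1 and Col26a1 held 4 sites each. These letters were not in the 3′ UTRs of Col1a2, Col6a1, Col6a5, Col8a2, Col9a2, Col10a1, Col11a2, Col12a1, Col13a1, Col18a1, Col20a1 and Col23a1. MicroRNAs were not measured here, and a match is not a used site.

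Collagen mRNA took a larger share of all UMIs in each later class. It was 0.626% in immobilized and 0.633% in control CAR-like cells, 1.97% and 1.57% in osteo-primed cells, 10.4% and 12.2% in early osteoblast-like cells, and 18.3% and 18.8% in mature osteoblast-like cells. Its makeup differed too. The 4 major fibrillar chains (types I, II and III) held 40.6% of collagen UMIs in immobilized and 43.7% in control CAR-like cells, and 88.9% and 90.1% in mature osteoblast-like cells. The 4 type IV chains held 14.6% and 14.4%, and the 4 type VI chains 15.4% and 14.9%, of collagen UMIs in CAR-like cells. In mature osteoblast-like cells the type VI share was 0.0231% and 0.0215%.

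For 23 of the 34 chains the counts were high enough to rank the classes, and for all 23 the class with the highest CPM was the same in both pools. That held for most of the 7712 genes ranked too, and the shares of all genes below are of genes highest in that class in both pools. It was the mature osteoblast-like class for 11 chains (Col1a1, Col1a2, Col2a1, Col5a1, Col5a2, Col11a1, Col11a2, Col13a1, Col15a1, Col22a1 and Col24a1), where 6.28% of all 7712 genes ranked were highest. It was the CAR-like class for 7 (Col3a1, Col4a1, Col4a2, Col5a3, Col6a1, Col6a2 and Col27a1), against 38.1% of all genes, and the osteo-primed class for 5 (Col6a3, Col8a1, Col12a1, Col16a1 and Col25a1), against 14.4%. No chain was highest in the early class, where 10.8% of all genes were. The other 11 chains were too low to rank. The ranks are of CPM with no shift taken off. In mature osteoblast-like over CAR-like cells the median gene was at a log2 ratio of -0.50 in the immobilized and -0.65 in the control pool. That lowers the share of all genes ranked highest in the mature class. These ranks are of both sexes summed. Early osteoblast-like cells of either sex and male mature osteoblast-like cells were too few to compare. Ranks in the mature class were therefore not checked in male cells. Within each sex of the immobilized pool, Col8a1 was higher in CAR-like than in osteo-primed cells. It was at 1041 and 804 CPM in female and at 587 and 541 CPM in male cells. In the control pool osteo-primed cells were higher in both sexes, at 1573 against 918 CPM and 443 against 348 CPM. Col16a1 in male control cells was at 37.6 CPM in CAR-like and 31.7 CPM in osteo-primed cells.

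**Figure D1:**
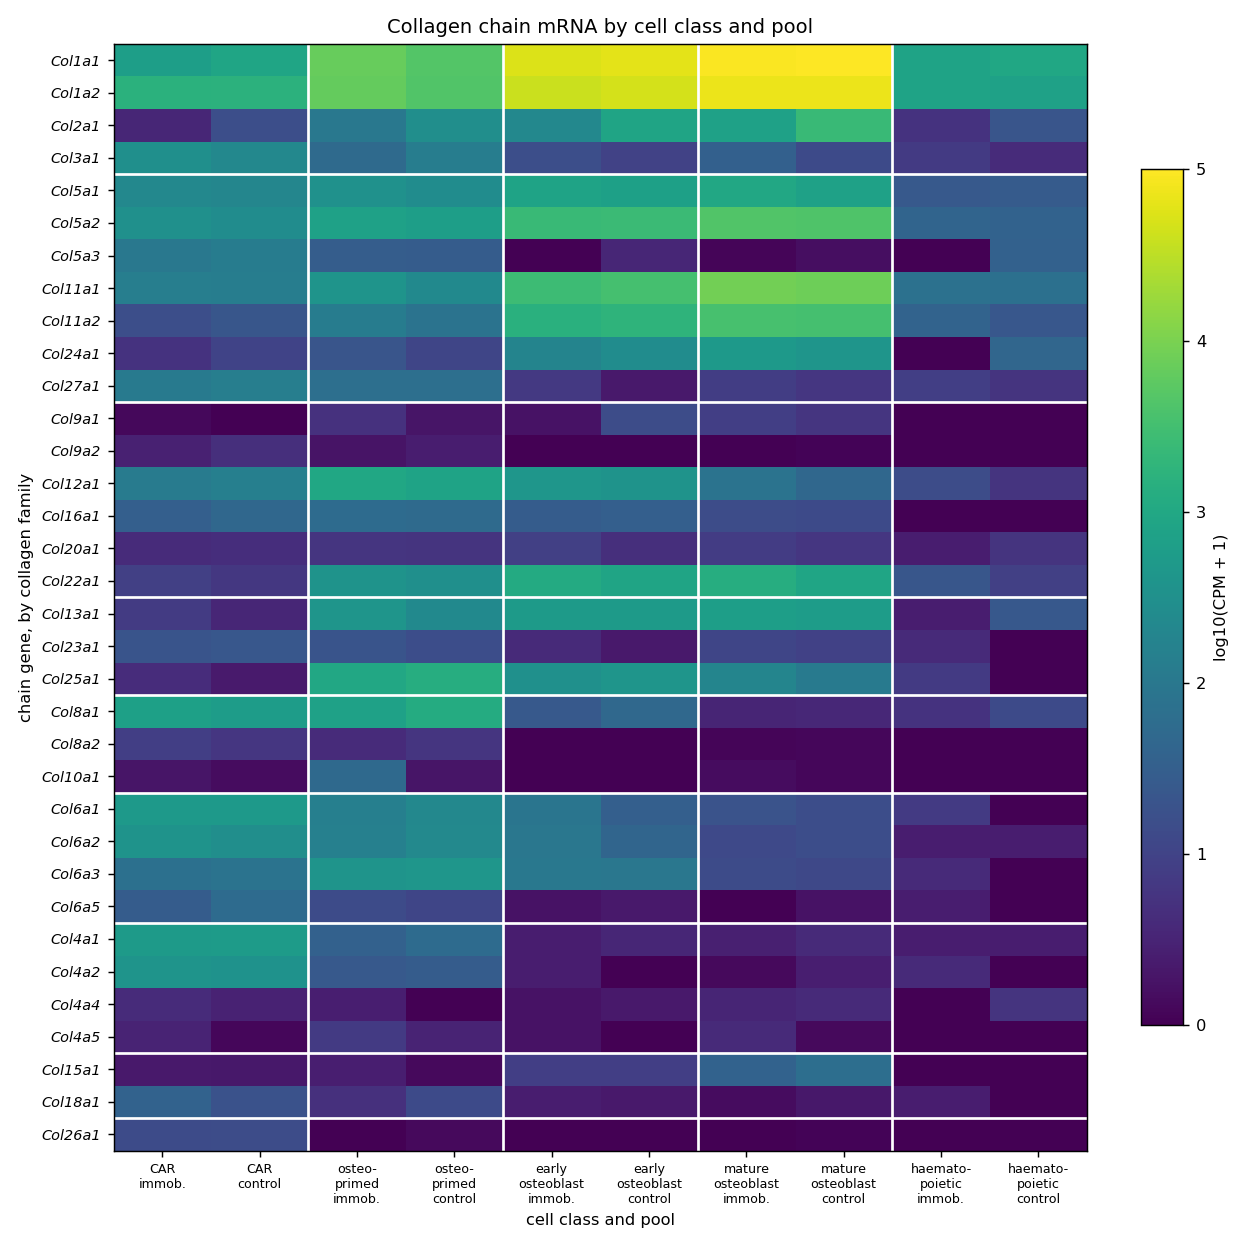
Heat map of log10(CPM + 1) for the 34 collagen chain genes (rows, grouped by family with white lines) in the 4 cell classes and in haematopoietic-like cells (columns, immobilized left of control). Col1a1 and Col1a2 are highest in mature osteoblast-like cells, Col4a1, Col4a2, Col6a1 and Col6a2 in CAR-like cells, and Col12a1 and Col25a1 in osteo-primed cells.

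Steps from class to class were counted by a 1.5-fold threshold, relative to the median of all genes where that moved by over 0.1 on the log2 scale (by -0.50 in the immobilized and -0.65 in the control pool for mature osteoblast-like over CAR-like cells). In osteo-primed over CAR-like cells 14 of 23 chains were higher and 8 lower in the immobilized pool (18.7% and 16.1% of all genes), and 12 of 23 were higher and 8 lower in the control pool (13% and 23.5%). In early osteoblast-like over osteo-primed cells 9 of 23 were higher and 13 lower in the immobilized pool (9.4% and 28.8% of all genes), and 10 of 20 were higher and 10 lower in the control pool (8.11% and 36%). The chains thus moved in both directions at each of these steps. In mature over early osteoblast-like cells 9 of 17 were higher and 4 lower in the immobilized pool (10.3% and 4.5%), and 8 of 18 were higher and 6 lower in the control pool (12.6% and 12.1%). Over the whole range, mature osteoblast-like over CAR-like, 12 of 24 chains were higher and 11 lower in the immobilized pool (29.8% and 27.5%), and 12 of 25 were higher and 13 lower in the control pool (30.5% and 29.9%). The 1 chain within 1.5-fold there was Col12a1 in the immobilized pool.

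The type I chains were higher in every later class in both pools. Col1a1, the α1 chain, was at 643 and 875 CPM in immobilized and control CAR-like cells, 6986 and 4610.0 CPM in osteo-primed, 53433 and 62486 CPM in early and 92271 and 95817 CPM in mature osteoblast-like cells. Col1a2, the α2 chain, was at 1580.2 and 1652 CPM, 6539 and 4349.8 CPM, 39496 and 47259 CPM and 70104 and 70736 CPM in immobilized and control cells of the same classes. Haematopoietic-like cells, which should not make type I collagen, held 784 and 950.0 CPM of Col1a1 and 778 and 740.1 CPM of Col1a2, a measure of RNA free in the suspension. Counted per cell, Col1a1 averaged 3.31 UMIs in immobilized CAR-like cells, against 2.36 in haematopoietic-like cells of that pool, and 3.77 in control CAR-like cells, against 4.43. Control CAR-like cells thus held no more Col1a1 than that background. Col1a2 was above it in both pools, at 8.12 UMIs per immobilized CAR-like cell, against 2.35, and 7.12 per control CAR-like cell, against 3.45. A Col1a1 UMI was present in 89.4% and 92.7% of immobilized and control CAR-like cells (median depths 4404.5 and 3885.5 UMIs), and in 88.7% and 94.9% of haematopoietic-like cells (2227.5 and 2854.5 UMIs). With each cell thinned to 2000 UMIs, Col1a2 was found in 93.5% and 93.9% of CAR-like and 57.7% and 62.2% of haematopoietic-like cells; unthinned, the shares were 98.7% and 98.5% and 85.1% and 83.3%.

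The balance of the type I chains differed between classes. There were 0.407 Col1a1 UMIs per Col1a2 UMI in immobilized (0.378 to 0.437) and 0.530 in control CAR-like cells (0.501 to 0.559). In osteo-primed cells there were 1.07 and 1.06, in early osteoblast-like cells 1.35 and 1.32, and in mature osteoblast-like cells 1.32 and 1.35. Haematopoietic-like cells had 1.01 and 1.28. Col1a2 thus outnumbered Col1a1 in CAR-like cells only among these 4 classes, by counts of 3′ ends. Outside these classes it did so too in adipocyte-like (0.391 and 0.481), pericyte or smooth muscle-like (0.333 and 0.603) and endothelial-like cells (0.593 and 0.477).

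Col2a1, the chain of cartilage collagen, was lower in the immobilized pool in each class. It was at 2.45 and 15.2 CPM in immobilized and control CAR-like cells, no higher than the 4.48 and 20.2 CPM of haematopoietic-like cells. It was at 98.4 and 292 CPM in osteo-primed, 211 and 835 CPM in early and 719.6 and 2461 CPM in mature osteoblast-like cells. Chondrocyte markers other than collagens, 8 in all, summed to 90.2 and 127 CPM in osteo-primed cells and 32.7 and 33.2 CPM in mature osteoblast-like cells, where Matn1 and Ucma were at 0 in both pools. Col3a1, a fibrillar chain of soft tissue and vessels, ran the other way over the classes, at 312 and 215 CPM in immobilized and control CAR-like, 51.6 and 131 CPM in osteo-primed, 14.6 and 8.69 CPM in early and 33.0 and 11.996 CPM in mature osteoblast-like cells. Within the CAR-like class Col3a1 was highest in cluster 1, led by Frem1 and Lrrn1, at 582 and 480.5 CPM in 102 immobilized and 7 control cells.

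Of the type V chains, Col5a1 and Col5a2 were higher in later classes and Col5a3 lower. Col5a1 was at 218 and 193 CPM in immobilized and control CAR-like, 339.5 and 269 CPM in osteo-primed, 806 and 682 CPM in early and 993 and 714 CPM in mature osteoblast-like cells. Col5a2 was at 326 and 264 CPM, 717 and 644 CPM, 2430.2 and 2588 CPM and 4408 and 4276 CPM in the same classes. Col5a3 was at 97.6 and 123 CPM, 29.1 and 28.1 CPM, 0 and 2.48 CPM and 0.162 and 0.531 CPM, so its levels lay at the opposite end from its partners.

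Type XI followed type I. Col11a1 was at 135 and 131 CPM in immobilized and control CAR-like, 391 and 239 CPM in osteo-primed, 2675 and 3353 CPM in early and 8555 and 8036 CPM in mature osteoblast-like cells. Col11a2 was at 15.03 and 21.1 CPM, 126 and 80.9 CPM, 1522 and 1761 CPM and 3478 and 3378 CPM. CAR-like cells held no more Col11a2 than the background: 0.0773 UMIs per immobilized CAR-like cell, against 0.113 per haematopoietic-like cell, and 0.0911 per control CAR-like cell, against 0.101. By the same measure Col2a1 and Col22a1 were at or under the background in CAR-like cells of both pools, Col1a1 in those of the control pool and Col25a1 in those of the immobilized pool. Steps of these chains from the CAR-like class start from that background, and no fold is given for them. Control CAR-like cells also held fewer Col13a1 and Col24a1 UMIs than haematopoietic-like cells. The latter held 0.109 and 0.203 per cell in the control pool, against 0.0045 and 0 in the immobilized pool. In control haematopoietic-like cells Col24a1 was at 4.31% of its count per mature osteoblast-like cell, against 0.401% for Col1a1. For Col13a1 and Col24a1 that level is thus no sure measure of free RNA, and no fold is given either. Col24a1, a fibrillar chain known from mouse bone and cornea, was at 4.30 and 9.03 CPM in CAR-like, 19.5 and 10.3 CPM in osteo-primed, 176 and 272 CPM in early and 517 and 409 CPM in mature osteoblast-like cells, with 0 and 43.5 CPM in haematopoietic-like cells. Col27a1, a fibrillar chain of cartilage, was highest in CAR-like cells, at 107 and 134 CPM, against 7.13 and 5.31 CPM in mature osteoblast-like cells.

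Among FACIT chains, Col12a1, a fibril-surface collagen of tendon and bone, was highest in osteo-primed cells, at 955 and 811 CPM in the immobilized and control pools. It was at 121 and 142 CPM in CAR-like, 420.0 and 363 CPM in early and 80.5 and 46.8 CPM in mature osteoblast-like cells. Col22a1, known from muscle-tendon junctions, climbed over the series instead, at 7.98 and 5.51 CPM, 373 and 312 CPM, 1116 and 813 CPM and 1307 and 849.8 CPM from CAR-like to mature osteoblast-like cells. Col16a1 varied over a narrow range, from 13.3 to 53.8 CPM over the 4 immobilized and from 12.5 to 52.5 CPM over the 4 control classes.

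The membrane-spanning chains Col25a1 and Col13a1 were low in CAR-like cells and high in the later classes. Col25a1 was at 3.38 and 1.32 CPM in immobilized and control CAR-like, 1006 and 1308 CPM in osteo-primed, 317 and 396 CPM in early and 187 and 108 CPM in mature osteoblast-like cells. A Col25a1 UMI was found in 76.6% and 75.7% of immobilized and control osteo-primed cells (median depths 5640.5 and 5821 UMIs), against 1.80% and 0% of haematopoietic-like cells. Col13a1 was at 6.44 and 2.42 CPM, 402 and 234 CPM, 539.6 and 530.3 CPM and 627 and 572 CPM over the 4 classes.

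Col8a1, a network collagen of vessel walls and cornea, was high in both stromal classes and low in osteoblasts. It was at 683 and 569 CPM in immobilized and control CAR-like, 725 and 1216 CPM in osteo-primed, 24.1 and 47.2 CPM in early and 2.27 and 2.65 CPM in mature osteoblast-like cells. Of the type VI chains, which assemble into beaded filaments, Col6a1 was at 499 and 510.2 CPM, 141 and 211 CPM, 87.5 and 31.0 CPM and 17.7 and 14.2 CPM over the classes, and Col6a2 at 370.0 and 297 CPM, 147 and 222 CPM, 94.8 and 42.2 CPM and 11.7 and 14.4 CPM. Col6a3, which assembles with both, was instead highest in osteo-primed cells, at 378 and 431 CPM, against 68.4 and 79.3 CPM in CAR-like, 99.2 and 93.1 CPM in early and 13.1 and 10.9 CPM in mature osteoblast-like cells. Col6a5 was at 27.6 and 54.8 CPM in CAR-like cells, and at 42.5 and 114 CPM in cluster 5 of that class, of which it is a leading gene.

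Type IV chains, the scaffold of basement membranes, marked the CAR-like end. Col4a1 was at 522 and 547 CPM in immobilized and control CAR-like, 34.0 and 56.2 CPM in osteo-primed, 1.46 and 2.48 CPM in early and 1.78 and 2.87 CPM in mature osteoblast-like cells, the last near the 1.49 and 1.55 CPM of haematopoietic-like cells. Col4a2 was at 386 and 359 CPM, 24.3 and 28.1 CPM, 1.46 and 0 CPM and 0.324 and 1.59 CPM. Pericyte or smooth muscle-like cells had more, at 4689.9 and 1503 CPM of Col4a1 in 7 immobilized and 53 control cells, and 10 pericyte markers summed to 287 and 243 CPM in CAR-like cells. Col4a1 and Col4a2 start head to head on chromosome 8 and Col6a1 and Col6a2 lie 85162 bases apart on chromosome 10, each pair with like courses. Col3a1 and Col5a2, 24615 bases apart on chromosome 1, had opposite ones.

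Among multiplexins, basement membrane collagens that release endostatin-type fragments, Col18a1 was at 36.8 and 16.96 CPM in immobilized and control CAR-like cells and at 0.486 and 1.06 CPM in mature osteoblast-like cells. Col15a1 was at 1.23 and 1.10 CPM in CAR-like, 1.61 and 0.312 CPM in osteo-primed, 7.29 and 7.45 CPM in early and 36.3 and 61.8 CPM in mature osteoblast-like cells. Of the remaining members Col4a4, Col4a5, Col8a2, Col9a1, Col9a2, Col20a1, Col23a1 and Col26a1, the highest value in any of the 4 classes was the 22.03 CPM of Col23a1 in control CAR-like cells.

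**Figure D2:**
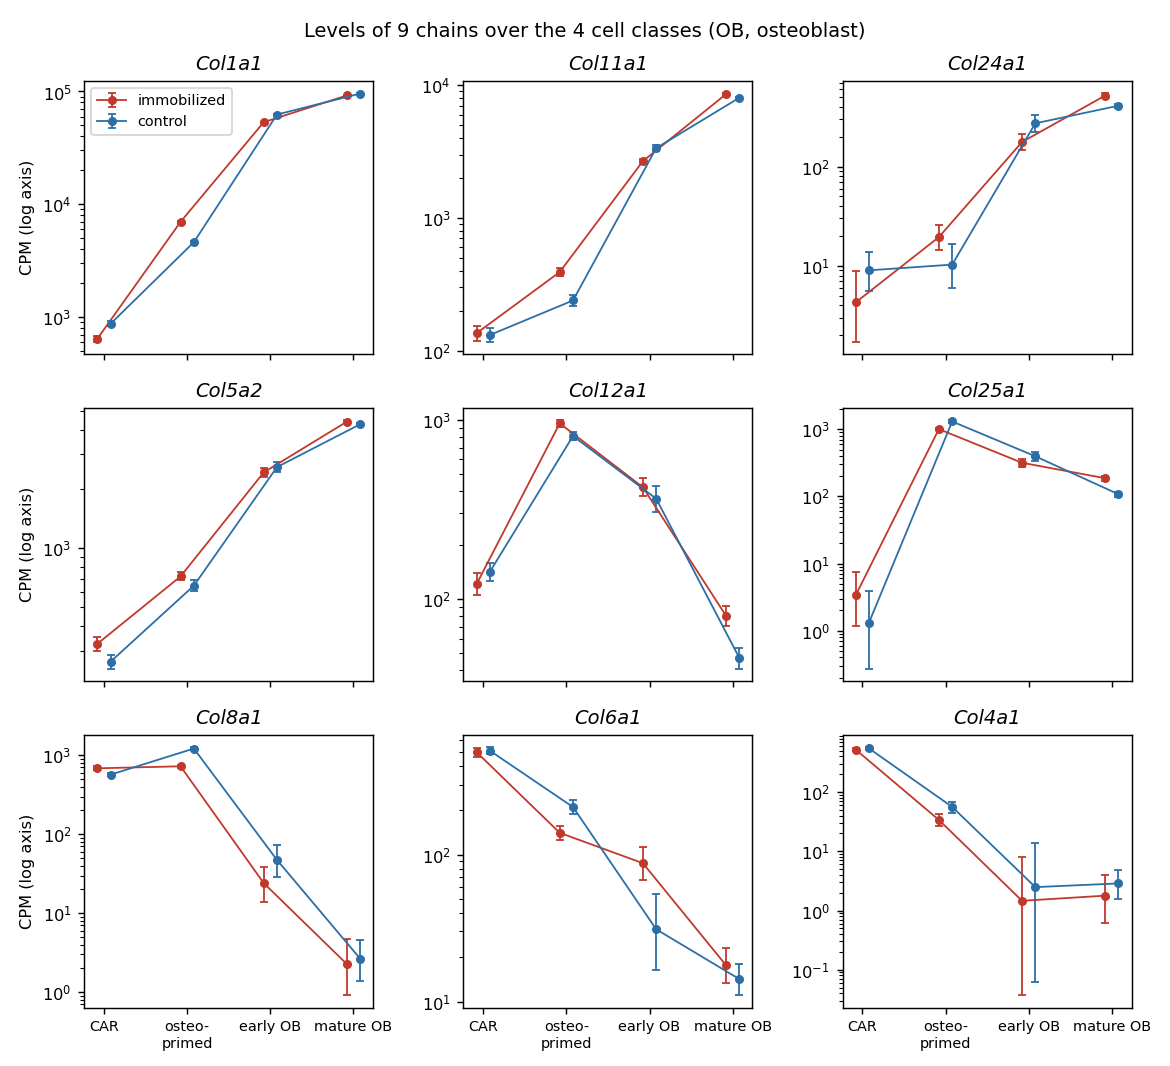
Levels of 9 chains in CPM (log axes) across CAR-like, osteo-primed, early osteoblast-like (early OB) and mature osteoblast-like (mature OB) cells, immobilized in red and control in blue, with 95% Poisson intervals for counting error. Col1a1, Col11a1, Col24a1 and Col5a2 end highest in mature osteoblast-like cells, Col12a1, Col25a1 and Col8a1 peak in osteo-primed cells, and Col6a1 and Col4a1 start highest in CAR-like cells. Both sexes are summed, and in the immobilized pool Col8a1 was higher in CAR-like than in osteo-primed cells within each sex.

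Chains also divided the clusters within a class, given as a description. Osteo-primed cells fell into cluster 2, led by Hs3st5 and Tafa2, and cluster 3, led by Kcnj15 and Lvrn. Col8a1 was at 1307 and 2098 CPM in immobilized and control cells of cluster 2 and at 222 and 468 CPM in cluster 3, and Col12a1 at 1240.4 and 1017 CPM and at 708 and 637 CPM. Col1a1 was at 10975 and 6675 CPM in cluster 3 and 2371 and 2175 CPM in cluster 2, and Col13a1 at 576 and 319.9 CPM and 199.8 and 133 CPM. So the osteo-primed cluster higher in type I was lower in type VIII, in both pools. Among mature osteoblast-like cells Col24a1 was highest in cluster 8, led by Mamdc2 and Slc13a5, at 611 and 734 CPM. Col2a1 was highest in cluster 9, of which it and Bglap are leading genes, at 1277 and 3347 CPM.

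**Figure D3:**
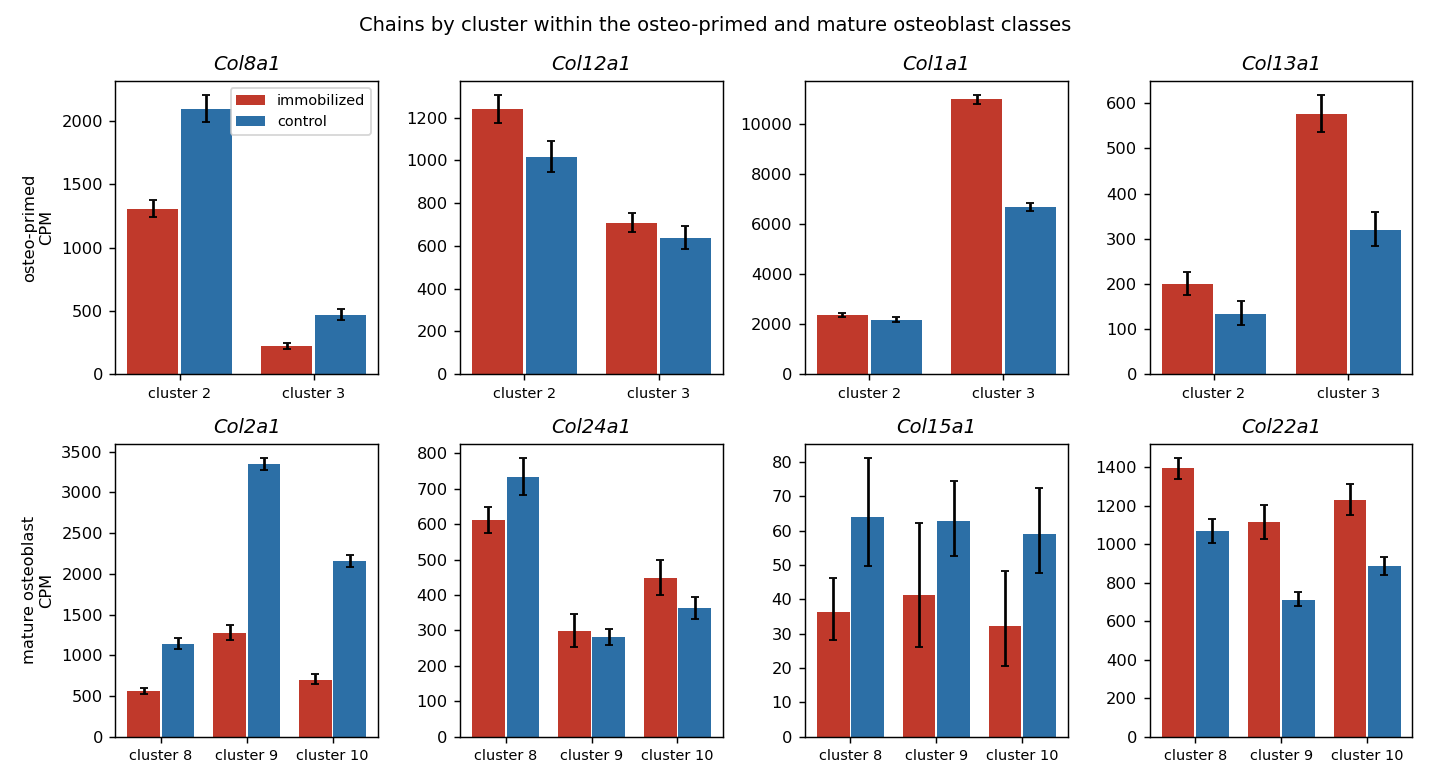
Bars give CPM (from 0) with 95% Poisson intervals in the osteo-primed clusters 2 and 3 (upper row) and the mature osteoblast-like clusters 8, 9 and 10 (lower row), immobilized in red left of control in blue. Col8a1 and Col12a1 are higher in cluster 2 and Col1a1 and Col13a1 in cluster 3, and Col2a1 is lower in the immobilized pool in each of clusters 8, 9 and 10.

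The series asks what disuse changes in these cells. Within each class, chains averaging 50 UMIs or more per lane in either pool were compared, and those past 1.5-fold were counted. A chain is named if its interval also leaves out equal levels and both lanes have 1 sign. The lanes hold the same cells, so the rule on sign adds little. Fewer cells of a kind within a class and less mRNA per cell cannot be told apart in these sums.

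In CAR-like cells few chains differed: 1 of 19 was at least 1.5-fold higher in the immobilized pool (4.25% of 7154 genes) and 1 lower (4.57%). Col18a1 was at 36.8 and 16.96 CPM in immobilized and control cells, from 60 and 38.5 UMIs, giving a log2 ratio of 1.11 (0.51 to 1.74). Its ratio stayed past 1.5-fold under all 16 alternatives run, but these ratios were taken whatever the count. Col18a1 was under the count minimum with the stricter cell filter and in female cells (28 UMIs over both pools). In male cells its interval (-0.04 to 1.53) included equal levels. Col6a5 was at 27.6 and 54.8 CPM, giving -0.98 (-1.52 to -0.49); in male cells alone its ratio was 0.80 (-0.10 to 1.77). The type I, III and V and the other type VI chains were within 1.5-fold: Col1a1 at -0.44 (-0.55 to -0.34), Col1a2 at -0.06 (-0.14 to 0.01), Col3a1 at 0.54 (0.36 to 0.72), Col5a1 at 0.17, Col5a2 at 0.30, Col5a3 at -0.33, Col6a1 at -0.03, Col6a2 at 0.32 and Col6a3 at -0.21. The median log2 ratio of the 19 chains was -0.06, against 0.00 over all genes. The pools filled this class from different clusters, cluster 1 with 102 immobilized and 7 control cells, cluster 12 with 36 and 119, and cluster 5, of which Col6a5 is a leading gene, with 74 of 317 and 210 of 527. With the clusters given the same weights in both pools Col6a5 was at -1.14. Without cluster 1, 0 of 18 chains were higher and 3 lower, Col6a5 was at -1.60, and Col18a1, at 0.81, had too few UMIs to be counted.

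In osteo-primed cells 6 of 22 chains were at least 1.5-fold higher in the immobilized pool (4.24% of 7079 genes) and 5 lower (2.8%), with a median of 0.04 for the chains and 0.04 for all genes. The number higher depended on how cells were classed: it was 2 or 3 with collagen genes kept in the clustering, at resolutions 0.6 and 2.0, under the stricter and looser cell filters and with doublet calls kept. Higher were both type I and both type XI chains, Col13a1 and Col10a1. Col1a1 was at 6986 and 4610.0 CPM in immobilized and control cells, giving a log2 ratio of 0.60 (0.56 to 0.64), and Col1a2 at 6539 and 4349.8 CPM, giving 0.59 (0.55 to 0.63). Col11a1 had a ratio of 0.71 (0.54 to 0.89), Col11a2 of 0.63 (0.34 to 0.94) and Col13a1 of 0.78 (0.61 to 0.95). Col1a1 and Col1a2 lay close to the threshold and stayed past it under 8 and 6 of 15 alternatives, Col13a1 under 14. With collagen genes kept in the clustering Col1a1 was at -0.06 and Col11a2 at -0.56.

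Lower in immobilized osteo-primed cells were 5 chains, of types II, III, IV, VI and VIII. Col8a1 was at 725 and 1216 CPM in immobilized and control cells, giving a log2 ratio of -0.75 (-0.84 to -0.65). Col2a1 had a ratio of -1.56 (-1.80 to -1.34), Col4a1 of -0.73 (-1.17 to -0.28), Col6a2 of -0.59 (-0.81 to -0.38) and Col3a1 of -1.34 (-1.67 to -1.01). Col6a1, at -0.58 (-0.80 to -0.36), was just inside the threshold, while Col6a3, Col5a1, Col5a2 and Col5a3 were at -0.19, 0.33, 0.16 and 0.04. Col8a1 was lower in both clusters of the class, and each cluster made up about as much of it in either pool (199 of 394 immobilized and 112 of 224 control cells were in cluster 2). CAR markers summed to 4966 and 5353 CPM in these cells.

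Single cells weighed heavily on some of these chains. Of 125.5 Col10a1 UMIs in immobilized osteo-primed cells, 125 came from 1 cell of cluster 3. That cell also held 3.5 Ihh, 5 Sox9 and 6.5 Acan UMIs, genes of growth plate cartilage, where Col10a1 marks hypertrophic chondrocytes. Of the other chondrocyte markers listed, Hapln1 was at 1.5 UMIs in it, and Matn3, Cnmd, Matn1, Ucma and Comp were at 0. The Col10a1 ratio was 5.34 with that cell. Without the top cell of each pool 0.5 UMIs were left in the immobilized and 0.5 in the control pool, too few for a ratio. Of 209 Col3a1 UMIs in control cells 142.5 came from 1 cell, and without the top cells Col3a1 was at -0.46 and Col4a1 at -0.42, both within 1.5-fold. Col11a2, at 0.52, and Col6a2, at -0.57, were then within it too.

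In early osteoblast-like cells, 47 in the control pool, 2 of 15 chains were at least 1.5-fold higher (8.68% of 2362 genes) and 2 lower (2.29%) in the immobilized pool, with a median of -0.09 for the chains and 0.15 for all genes. Col6a1 was at 87.5 and 31.0 CPM in immobilized and control cells, giving a log2 ratio of 1.45 (0.60 to 2.50), and Col6a2 at 94.8 and 42.2 CPM, giving 1.14 (0.38 to 2.03). With a looser cell filter both turned round, to -0.77 and -0.54. Col24a1 had a ratio of -0.62 (-1.01 to -0.24) and Col2a1 of -1.98 (-2.28 to -1.70). Of 336 Col2a1 UMIs in the control cells 224.5 came from 1 cell, and without the top cells Col2a1 was at -0.53 and Col24a1 at -0.51. The type I chains were within 1.5-fold, Col1a1 at -0.23 (-0.25 to -0.20) and Col1a2 at -0.26 (-0.29 to -0.23), as were Col5a1, Col5a2 and Col6a3 at 0.24, -0.09 and 0.08.

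In mature osteoblast-like cells the median gene was higher in the immobilized pool by 0.19 on the log2 scale, and ratios are relative to that shift. By that measure 3 of 18 chains were at least 1.5-fold higher (4.87% of 7469 genes) and 2 lower (11.4%), with a median of -0.08 for the chains and -0.05 for all genes; by total counts 4 were higher and 2 lower. Col2a1 was at 719.6 and 2461 CPM in immobilized and control cells, giving a log2 ratio of -1.97 (-2.03 to -1.90), and stayed past 1.5-fold under all 13 alternatives run, between -2.13 and -1.51. A Col2a1 UMI was found in 52.0% and 71.8% of immobilized and control cells (median depths 8758 and 10123 UMIs), against 1.35% and 9.42% of haematopoietic-like cells; thinned to 2000 UMIs the shares were 34.2% and 61.0%. It was lower in each cluster, at 559 and 1143 CPM in cluster 8, 1277 and 3347 CPM in cluster 9 and 702 and 2157 CPM in cluster 10. Cluster 9 held 52 immobilized and 161 control cells. Bglap, the osteocalcin gene and a marker of the class, was at 11192 and 30525 CPM, and its part in the result was not tested.

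Col15a1 was at 36.3 and 61.8 CPM in immobilized and control mature osteoblast-like cells, with a log2 ratio of -0.96 (-1.29 to -0.64). Col25a1 had a ratio of 0.60 (0.42 to 0.77) and Col12a1 of 0.59 (0.32 to 0.86); these stayed past 1.5-fold under 6 and 5 of 13 alternatives, and Col12a1 turned round under 2. Col3a1, at 33.0 and 11.996 CPM with a ratio of 1.26 (0.78 to 1.76), rested on 1 cell with 53.5 of 102 immobilized UMIs: without the top cells its ratio was 0.49, and in female cells alone it was at 9.06 and 9.71 CPM. Type I was close between pools, Col1a1 at -0.25 (-0.26 to -0.24) and Col1a2 at -0.21 (-0.22 to -0.20), or -0.05 and -0.01 by total counts. Col5a1, Col5a2, Col6a1, Col6a2 and Col6a3 were within 1.5-fold, at 0.28, -0.15, 0.12, -0.49 and 0.07. Col22a1, at 1307 and 849.8 CPM, was past 1.5-fold by total counts (0.62) but not relative to the shift, at 0.43 (0.36 to 0.49).

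**Figure D4:**
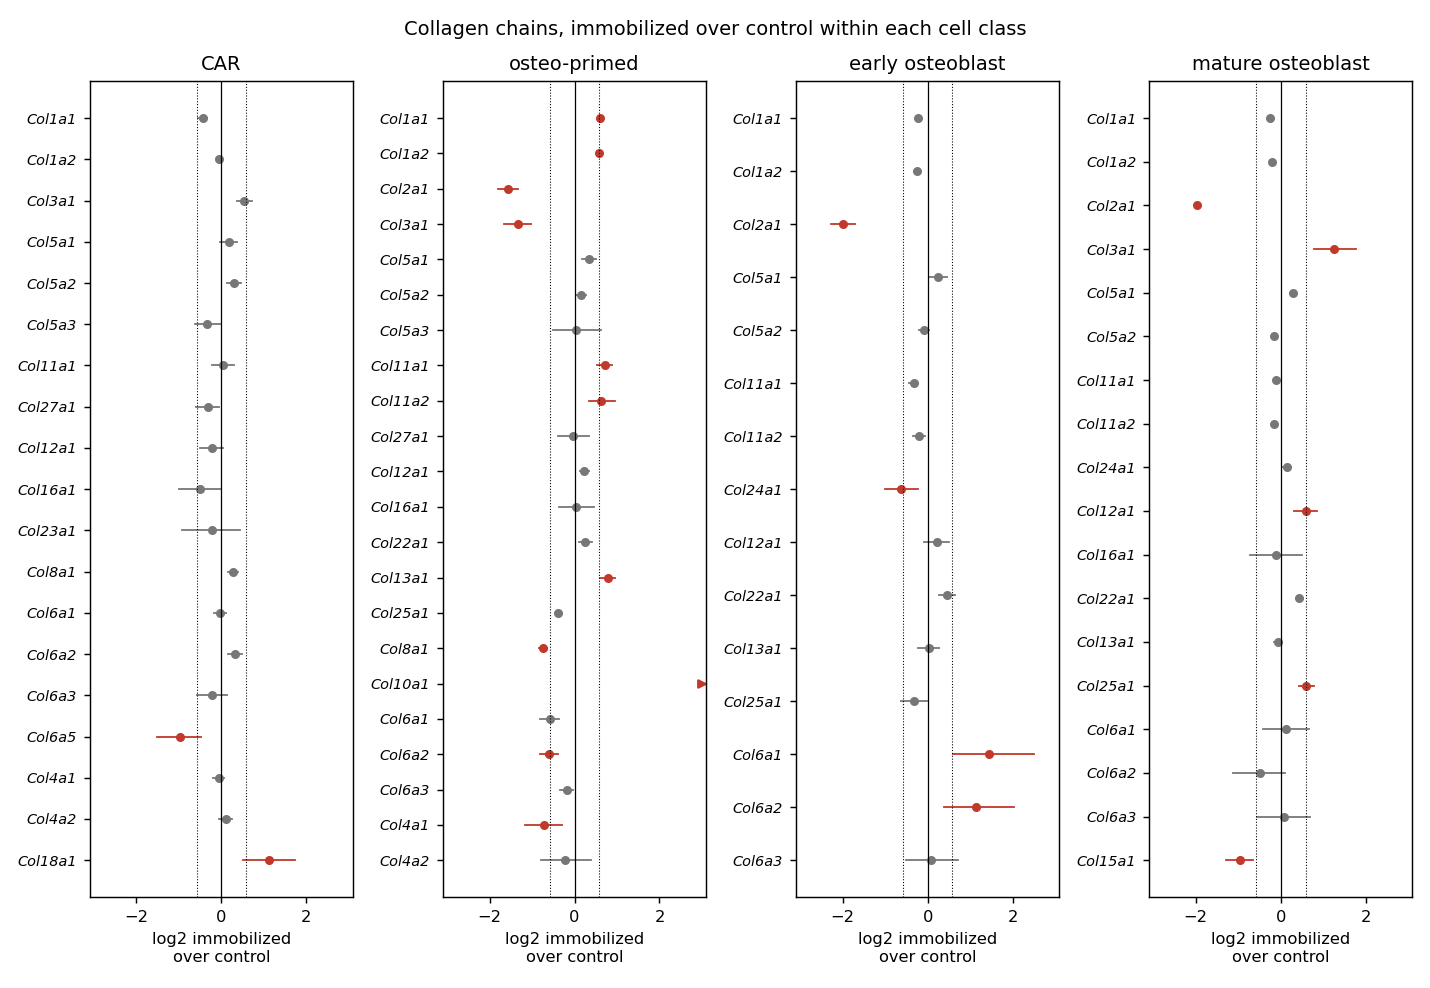
Log2 ratio of immobilized over control CPM for each chain compared in each class, with 95% counting intervals (relative to the median gene in mature osteoblast-like cells); dotted lines mark 1.5-fold, red marks the named chains and the arrow head stands for Col10a1 at 5.34, beyond the axis. Col2a1 lies left of the threshold in osteo-primed, early and mature osteoblast-like cells.

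Because the pools differed in sex, ratios were also taken in female and in male cells. Log2 ratios are those with an interval. In female osteo-primed cells (206 immobilized and 134 control) Col1a1 was at 9236 and 4748 CPM, with 0.96 (0.91 to 1.01), and in male ones (151 and 72) at 3400.2 and 3553 CPM, with -0.06 (-0.15 to 0.03). Col13a1 was at 467 and 218 CPM in female immobilized and control cells, with 1.10 (0.89 to 1.32), and at 277 and 297 CPM in male ones, with -0.11 (-0.41 to 0.21). Col8a1 was at 804 and 1573 CPM in female cells, with -0.97 (-1.08 to -0.86), and at 541 and 443 CPM in male cells, with 0.28 (0.04 to 0.53). The male intervals of Col1a1 and Col13a1 included equal levels, so no difference was detectable there, while for Col8a1 the female and male ratios had opposite signs and both intervals left out 0. Col2a1 was at 119 and 390.0 CPM in female cells, with -1.71 (-1.98 to -1.45). In male cells it was at 77.2 and 57.7 CPM, with 0.40 (-0.26 to 1.14), an interval that included equal levels. Col25a1 differed more in male cells, at 1186 and 2032 CPM with a ratio of -0.78 (-0.91 to -0.65), than in female cells, at 877 and 961 CPM with -0.13 (-0.25 to -0.01). The difference between the sexes could not be tested with 1 pool per group. In mature osteoblast-like cells the control pool had 16 male cells, too few to compare; in female ones (245 and 381) Col2a1 was at 831 and 2542 CPM.

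**Figure D5:**
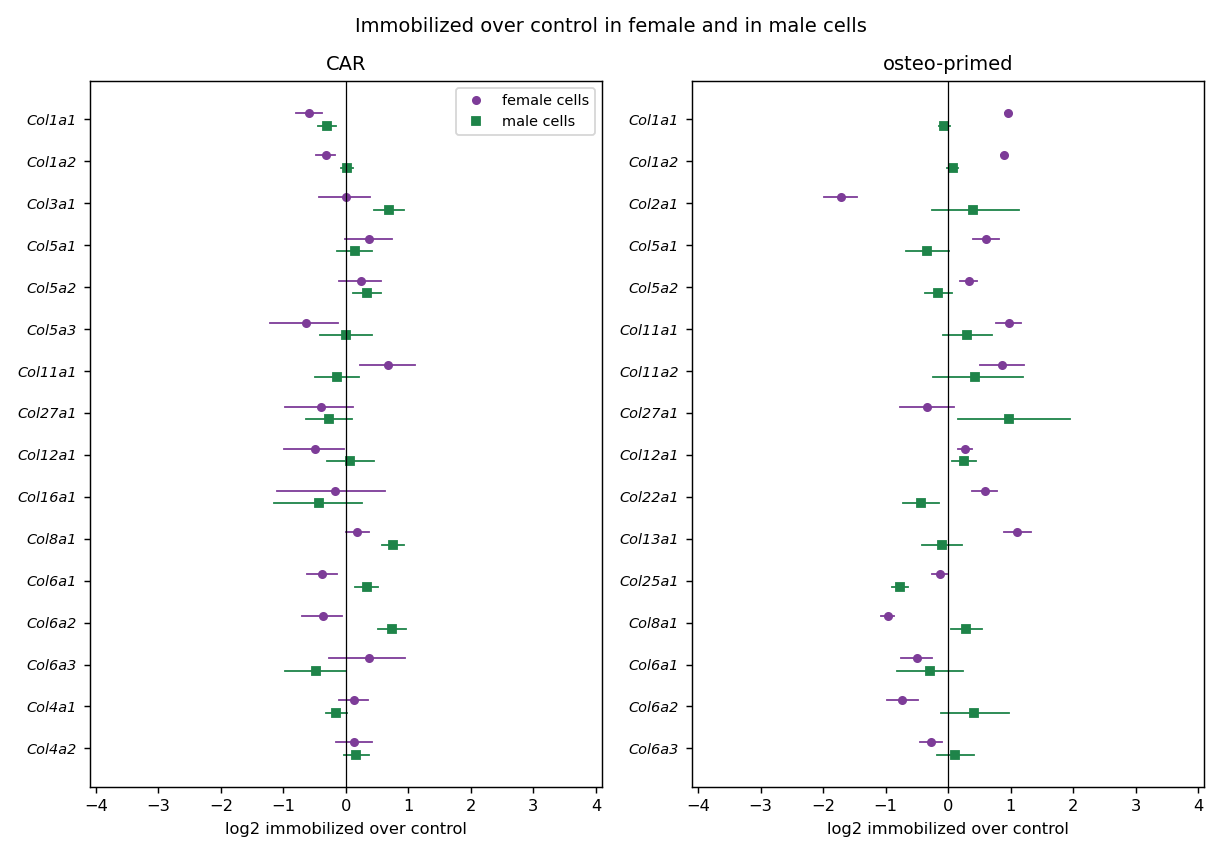
Log2 ratio of immobilized over control CPM in female (purple circles) and male (green squares) cells of the CAR-like and osteo-primed classes, with 95% counting intervals, for compared chains with at least 50 UMIs over both pools in each sex. In osteo-primed cells Col1a1 and Col13a1 lie right of 0 and Col8a1 left of 0 in female cells, while the male ratio of Col1a1 is -0.06.

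Other genes of collagen handling were taken from 7 lists covering modification, export, propeptide removal, cross-linking, fibril-associated matrix, receptors and breakdown. Serpinh1, the HSP47 chaperone that binds procollagen in the endoplasmic reticulum, was lower in the immobilized pool in all 4 classes; it is given in CAR-like and mature cells after its values were seen. It was at 256 and 413 CPM in CAR-like (log2 ratio -0.69), 464 and 728 CPM in osteo-primed (-0.65), 1363 and 2268 CPM in early (-0.73) and 1498 and 2313 CPM in mature osteoblast-like cells (-0.82). Of the modification list, 2 of 15 genes were lower in CAR-like, 1 of 16 in osteo-primed, 1 of 12 in early and 1 of 15 in mature osteoblast-like cells, and 0 were higher in any class. Of all genes 4.57%, 2.8%, 2.29% and 11.4% were lower in these classes, so the share in mature cells was under that of all genes. The other one lower was Plod2, a lysyl hydroxylase, at 106 and 187 CPM in CAR-like cells.

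Of the fibril-associated list 5 of 9 genes were lower and 0 higher in CAR-like cells, 1 of 10 lower and 1 higher in osteo-primed, 2 of 7 lower and 0 higher in early, and 4 of 8 lower and 0 higher in mature osteoblast-like cells, against the same 4.57%, 2.8%, 2.29% and 11.4% of all genes lower. Its median log2 ratio was -0.61, -0.26, -0.55 and -0.52 in these classes, against 0.00, 0.04, 0.15 and -0.05 over all genes. Lum, the fibril-binding proteoglycan lumican, was at 76.7 and 136 CPM in immobilized and control CAR-like cells, 418 and 1031 CPM in early and 418 and 909 CPM in mature osteoblast-like cells, the last a ratio of -1.31 (-1.41 to -1.22). Dcn, decorin, was at 2179 and 3387 CPM in early and 2590.3 and 4056 CPM in mature osteoblast-like cells. In CAR-like cells Fbln1, a fibulin, was at 106 and 243 CPM and Prelp, a leucine-rich proteoglycan, at 79.8 and 139.9 CPM. Fmod, fibromodulin, was higher in osteo-primed cells, at 34.2 and 12.8 CPM with a ratio of 1.39 (0.71 to 2.19). Omd, osteomodulin, was lower, at 30.7 and 47.8 CPM there and 39.7 and 73.0 CPM in mature osteoblast-like cells, of which it is also a class marker. Some of these counts rested on single cells. Postn, counted as lower in CAR-like cells, had 29 of 59 control UMIs in 1 cell, and was at 0.04 without the top cells. Omd in osteo-primed cells was then at -0.55 and Dcn in early osteoblast-like cells at -0.47, both within 1.5-fold. The other genes of this list past 1.5-fold stayed past it.

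In the other lists a few genes were past 1.5-fold, in both directions. Of all genes 4.25% were higher and 4.57% lower in CAR-like cells, and 4.24% and 2.8% in osteo-primed cells. The shares were 8.68% and 2.29% in early and 4.87% and 11.4% in mature osteoblast-like cells. With so few genes per list, the counts are given as a description. Of the export list 0 of 7 genes were higher and 1 lower in CAR-like cells, 1 of 7 higher and 0 lower in osteo-primed, 0 of 5 past it in early, and 0 of 7 higher and 1 lower in mature osteoblast-like cells. Creb3l1, a transcription factor of the secretory pathway, was higher in osteo-primed cells, at 249 and 144 CPM in the immobilized and control pools with a log2 ratio of 0.79 (0.57 to 1.02), and lower in CAR-like cells, at 30.4 and 48.2 CPM with -0.66 (-1.18 to -0.17). Sar1b, a GTPase of vesicle coats, was the one lower in mature osteoblast-like cells, at 48.9 and 65.5 CPM, a ratio of -0.61 relative to the shift of the median gene. Of the propeptide list 1 of 4 genes was higher and 1 lower in CAR-like cells and 1 of 5 higher and 0 lower in mature osteoblast-like cells, with 0 of 3 past it in each of the classes between. Adamts14, a procollagen N-propeptidase, was higher in CAR-like cells, at 117 and 58.2 CPM, and in mature osteoblast-like cells, at 31.1 and 13.5 CPM. Pcolce, which enhances removal of the C-propeptide, was lower in CAR-like cells, at 214 and 375 CPM. Of the cross-linking list 1 of 4 genes, Loxl2, a lysyl oxidase, was lower in mature osteoblast-like cells, at 88.0 and 126 CPM with a ratio of -0.71 on the same scale, and none was past it in the other classes.

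Of the receptor list 0 of 6 genes were higher and 1 lower in CAR-like cells (4.25% and 4.57% of all genes). In early osteoblast-like cells 1 of 5 was higher and 0 lower (8.68% and 2.29%). Ddr1, a collagen-binding receptor kinase, was the one lower, at 49.4 and 76.0 CPM. Creb3l1 in CAR-like cells, Sar1b, Pcolce, Loxl2 and Ddr1 are given after their values were seen. Itga11, a collagen-binding integrin chain, was higher in early osteoblast-like cells, at 129 and 74.5 CPM. Of the breakdown list 2 of 4 genes were higher and 0 lower in CAR-like cells, against the same shares there. In each of osteo-primed (of 5), early (of 4) and mature osteoblast-like cells (of 5) 0 were higher and 1 lower. Of all genes 2.8%, 2.29% and 11.4% were lower in these classes. Of matrix metalloproteinases, Mmp13 was higher in CAR-like cells, at 764 and 371 CPM with a ratio of 1.04 (0.92 to 1.17), and lower in early osteoblast-like cells, at 213 and 350.2 CPM. Mmp13 is also on the osteo-primed marker list. Mmp2 was higher in CAR-like cells, at 73.0 and 45.2 CPM. Mmp9 was lower in osteo-primed cells, at 328 and 512 CPM, and in mature osteoblast-like cells, at 6.32 and 16.3 CPM. Of its control UMIs 417.5 of 820 in osteo-primed and 71.5 of 77 in mature osteoblast-like cells came from 1 cell. Without the top cells the ratios were 0.16 and 1.96. The latter rested on 17 immobilized and 5.5 control UMIs, under the count minimum, and is no sign of a difference.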

How the data were processed

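Raw counts of UMIs for each gene and barcode were deposited; per the file headers and processing notes the authors made them with Cell Ranger 7.0.0 on mm10. The 4 libraries are 2 lanes of each pool. Lanes shared 1747 immobilized and 1617 control barcodes and differed by less than the sampling noise (mean chi-square per gene 0.586 and 0.534), so they were averaged and counted as 1 sample per pool; UMI numbers can thus end in 0.5. Lanes held 9960011 and 10084134 UMIs in the immobilized and 10732720 and 10860328 in the control pool, and 3 barcodes occurred in both pools.

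Kept barcodes had 500 genes or more and less than 10% mitochondrial UMIs. Doublets called by Scrublet (10 immobilized, 14 control) were removed. Clustering used scanpy 1.11.5 and igraph 0.11.9 (2000 variable genes, no collagen genes, 30 components, 15 neighbours, Leiden resolution 1). To be named, a cluster had to show 3 markers and 30% of a list; this scoring was set after the clusters were seen. An adipocyte-like cluster with CAR markers (33 and 44 cells) was kept out of the CAR-like class.

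UMIs were summed per class. CPM ratios (pseudocount 0.5) have exact conditional binomial intervals, levels exact Poisson and shares exact Clopper-Pearson ones, at 95%. Counts of 3′ ends were not scaled by length. Ratios are relative to the median gene where it moved by over 0.1 on the log2 scale. With 1 pool per group no p-value is given. The ratio computation was tested on simulated counts. Chains named are those of types I, III, V and VI, those past 1.5-fold as described, and the 8 highest of each class; pathway genes are at most 4 higher and 4 lower per class. Members and lists were chosen with earlier results of these data known. All 34 chains matched GENCODE vM21 on GRCm38, the assembly of mm10. Alternatives concerned lanes, clustering, filters, doublets, scaling, thresholds, sex, cluster mix, free RNA and single cells.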

Additional observations from a re-analysis of the deposited data

Results flagged for a closer look

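Some chains had opposite differences between the pools in different classes or sexes. None of these contrasts between classes or sexes was tested, since each group is 1 pool.

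Col3a1 had a log2 ratio of immobilized over control of -1.34 in osteo-primed cells and 1.26 in mature osteoblast-like cells. In each case 1 cell held most UMIs of the higher pool, and without the top cells the ratios were -0.46 and 0.49.

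Col6a2 had a ratio of -0.59 in osteo-primed cells and 1.14 in early osteoblast-like cells, where it rests on 65 immobilized and 17 control UMIs.

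In female CAR-like cells Col6a1 had a ratio of -0.38 and Col6a2 of -0.37, whereas male CAR-like cells gave 0.33 for Col6a1 and 0.73 for Col6a2. Female osteo-primed cells gave -0.97 for Col8a1 and 0.58 for Col22a1, whereas male ones gave 0.28 for Col8a1 and -0.44 for Col22a1. All 8 of these intervals for counting error left out 0.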

How the results depend on the processing

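No paired analysis was possible because the replicate numbers are lanes of 1 pool per group and no test was run. Leaving out either lane moved none of the counts of chains past 1.5-fold by over 1.5 times. The lanes hold the same cells, so little else could come of this. Of the recomputed counts of chains 128 stayed within 1.5 times of the reported count and 48 did not. The main limits are the single pool per group, the 47 control early osteoblast-like cells and class borders that move with the clustering; causes were not tested. At resolution 0.6 there was no early class, and male mature cells and early cells split by sex were too few to compare.

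In CAR-like cells, where 1 chain was higher and 1 lower in the immobilized pool, 2 were higher at resolution 2.0, 0 higher and 2 lower under the stricter cell filter, 2 higher and 3 lower with a count minimum of 10, 0 lower by 2-fold, 0 higher and 4 lower in female cells, 3 higher and 0 lower in male cells, 2 higher and 3 lower with free RNA taken off, and 0 higher and 3 lower without cluster 1. Col6a5 turned to 0.80 in male cells.

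In osteo-primed cells 6 were higher and 5 lower. The number higher was 2 with collagen genes kept in the clustering, 2 at resolution 2.0, 3 at resolution 0.6, 3 under the stricter and 2 under the looser cell filter, and 3 with doublet calls kept. By 2-fold 1 was higher and 2 lower, and in male cells 1 higher and 1 lower. Col1a1 turned to -0.0558 with collagen genes kept in the clustering and to -0.0637 in male cells. Col11a2 turned to -0.56 with collagen genes kept, -0.12 at resolution 2.0, -0.0641 at 0.6 and -0.18 under the stricter filter. In male cells Col2a1 was at 0.40, Col6a2 at 0.41, Col8a1 at 0.28 and Col13a1 at -0.11. The male intervals of Col1a1, Col2a1, Col6a2 and Col13a1 included equal levels. Col10a1 had no ratio in male cells, with 0 UMIs in both pools, or without the top cells, where 3 of 21 chains were lower.

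In early osteoblast-like cells 2 were higher and 2 lower. With collagen genes kept in the clustering, at resolution 2.0, under either cell filter and with doublet calls kept, 0 were higher and 1 lower. By 2-fold and with free RNA taken off 1 was lower, and without the top cells 0 were lower. Col2a1 turned to 0.29 with collagen genes kept and 0.19 under the looser filter. Col6a1 turned to -0.23 with collagen genes kept, -0.21 under the stricter and -0.77 under the looser filter, and Col6a2 to -0.14 and -0.54 under these filters.

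In mature osteoblast-like cells 3 were higher and 2 lower. The number higher was 1 with collagen genes kept, under the looser filter, with doublet calls kept, in female cells and with free RNA taken off, and 1 was higher and 1 lower at resolution 2.0 and by 2-fold. Col12a1 turned to -0.20 at resolution 2.0 and -0.0695 under the looser filter, and Col3a1 to -0.31 in female cells. Between classes, 6 of 19 chains, in place of 11 of 24, were lower in female mature osteoblast-like than CAR-like cells of the immobilized pool.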
